A study of Anser cygnoides with 12 samples.

Results

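Geese, like other birds, have Z and W sex chromosomes: males carry a pair of Z chromosomes, and females carry a single Z and a W. Most genes of the ancestral pair were lost from the W, but a small set kept a W copy beside the Z copy, and such pairs are called gametologs. The genes that kept a W copy in birds include many dose-sensitive regulators of chromatin, RNA processing and protein turnover. Birds have no chromosome-wide silencing of a Z in males, so many Z genes are known to be expressed more in males than in females.

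Genes that are Z-linked with a W copy in birds were followed in the ileum, the last stretch of the small intestine, of Yangzhou geese: CHD1, NIPBL, SPIN1, UBAP2, HNRNPK, ZFR and RASA1. They are the 7 of 10 listed names that the deposited table of 19836 genes carries. The names UBE2R2, SMAD2 and VCP are absent from its name column and were skipped as members, though rows described as their proteins are given below. The study fed geese 3 diets and sequenced poly(A) RNA from 4 libraries a diet. Crude protein was 18% in the basal diet of the control geese and 21% in the feed of the high protein and the lactulose geese. The lactulose geese also received 0.3% lactulose, a poorly absorbed disaccharide. By its title, the study asks how lactulose acts on gut health and uric acid metabolism. Nothing in the labels gives sex, age or whether replicates are separate birds, so the p-values below measure the spread between these libraries, which may be technical.

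The libraries were put into classes by the count of a single row, LOC125179667, described in the table as hnRNP K-like and placed on the W of the Taihu goose assembly. Libraries above 2000 counts are called female-like and those under 500 male-like. These classes come from the data and not from the labels. The 6 female-like libraries held 3357 to 4294 counts, the 6 male-like libraries held 12 to 409, and 0 libraries lay between the thresholds. The female-like libraries were control 6 and 7, high protein 1 and 4, and lactulose 2 and 6. The male-like libraries were control 3 and 4, high protein 3 and 5, and lactulose 3 and 5. Each diet therefore held 2 libraries of each class, so class and diet could be fitted together.

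Library totals ranged from 38706155 to 48251825 counts. The tissue label was checked against intestinal markers: FABP6, the ileal bile acid binding protein, was at 621 to 3490 FPKM and CDH17, an intestinal cadherin, at 55.9 to 127 FPKM, where FPKM is the authors' level per transcript length and library size. MYH11, a smooth muscle myosin, was at 105 to 616 FPKM, so the samples held muscle as well as epithelium. Control 3 stood apart. Its median correlation with the other libraries was 0.971, against 0.981 to 0.987 for the rest, and its 20 most abundant genes took 13.9% of counts, against 8.18% to 12.8%. By the mean log2(CPM + 1) of marker lists, where CPM is the count scaled to the library total, it was the lowest male-like library for enteroendocrine, smooth muscle, endothelial, B cell and enteric neuron markers and for the 1 goblet marker found of 4. It was not the lowest for macrophage or T cell markers. For enterocyte markers it stood at 8.99, beside a male-like median of 9.04, and for ileal enterocyte markers at 8.45, beside 8.12. Lactulose 3 was the male-like library with the most W-like signal, as described below, and lactulose 3 and 5 were the most alike pair of all (r = 0.997 over genes).

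All 7 members lay on Z in the Taihu goose assembly, which was used for chromosome names only. In the deposited table, whose genome build is not given in the sources used here, they lay on 7 different scaffolds. HNRNPK spanned 2426250 to 2446420 of scaffold NW_025927789.1, ZFR 766279 to 795716 of NW_025927942.1 and RASA1 569336 to 617593 of NW_025927972.1. CHD1 spanned 246240 to 299090 of NW_025928009.1, NIPBL 325254 to 432080 of NW_025927670.1, SPIN1 1713413 to 1766449 of NW_025927814.1 and UBAP2 565755 to 644781 of NW_025927856.1. On 6 of these scaffolds most matched genes were on Z in the Taihu assembly. The NIPBL scaffold was mixed, with 13 of its 174 genes on Z and 135 on chromosome 3.

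Each of the 7 members had a higher mean level in the male-like libraries than in the female-like ones, and 4 of them passed the test. HNRNPK, ZFR, RASA1 and CHD1 were called at an adjusted p under 0.05 by edgeR's quasi-likelihood test over 16075 genes with diet as a term, all higher in male-like libraries. Over all genes tested, 1.51% were called in either direction and 0.883% higher in male-like libraries. The median log2 difference of the members was 0.60, or 1.51-fold, against a median of -0.003 over all genes. All 7 members passed the filter on low counts, and each was well above it in both classes, with the lowest library at 801 counts for SPIN1. In bulk tissue, fewer cells of a type and less RNA per cell cannot be told apart.

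**Figure D1:**
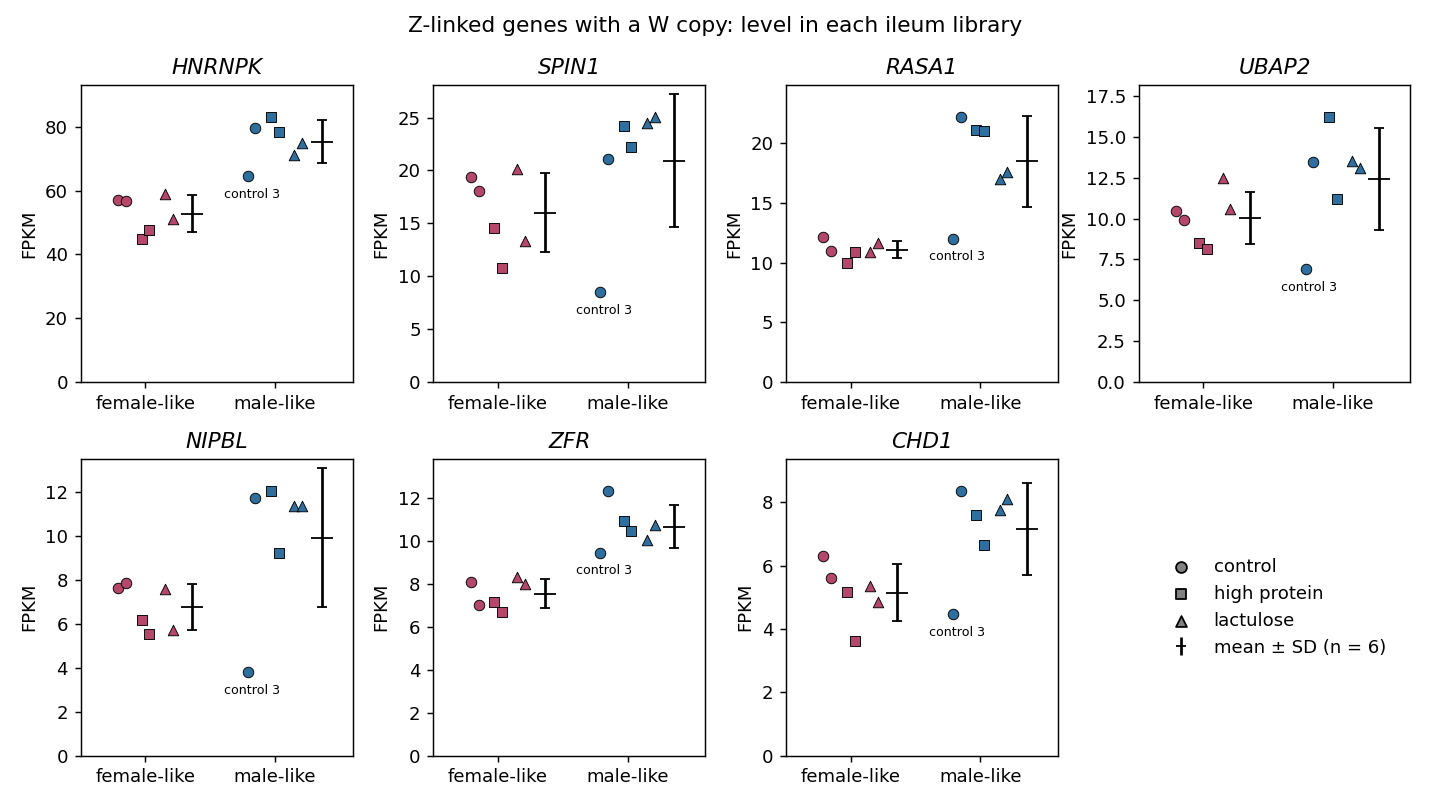
FPKM of the 7 members in each library, 1 panel a gene, with the 6 female-like and 6 male-like libraries side by side in 2 colours, a symbol shape for each diet, and the mean and SD of each class (n = 6). HNRNPK and ZFR do not overlap between classes, and control 3 is the lowest male-like library in every panel.

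Among the RNA-binding proteins, HNRNPK encodes an abundant protein that binds C-rich RNA and DNA and acts in splicing, transcription and translation. In control libraries 6 and 7 (female-like) it was at 57.2 and 56.6 FPKM, and in control 3 and 4 (male-like) at 64.6 and 79.6. In the high protein diet the female-like libraries 1 and 4 had 44.8 and 47.6 FPKM and the male-like libraries 3 and 5 had 83.2 and 78.5. In the lactulose diet the female-like libraries 2 and 6 had 59.1 and 51.1 FPKM and the male-like libraries 3 and 5 had 71.2 and 75.003. All 6 male-like libraries were above all 6 female-like libraries, and the same order held within each diet. The means were 52.7 ± 5.78 and 75.4 ± 6.68 FPKM (SD, n = 6 each). The fitted log2 difference was 0.61 ± 0.09 (SE), or 1.53-fold (edgeR adjusted p = 0.00417). The row that set the classes, LOC125179667, is itself described as hnRNP K-like. Reads shared between it and HNRNPK could tie this difference to the class rule, which was not tested.

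ZFR encodes a zinc finger protein that binds double-stranded RNA and takes part in splicing control. Its female-like libraries ran from 6.68 through a median of 7.56 to 8.32 FPKM, and its male-like libraries from 9.45 through 10.6 to 12.3. The classes did not overlap. The log2 difference was 0.60 ± 0.08 (edgeR adjusted p = 0.00352), and limma on log2(FPKM + 1) did not call it (adjusted p = 0.0693). HNRNPK and ZFR were the 2 members of 7 without overlap. Of all tested genes, 0.728% had every male-like library above every female-like one. That order was more frequent on Z. Of 685 other tested genes on Z in the Taihu assembly, 106 had it and 7 had the reverse. Among them were 108 genes on the members' scaffolds, of which 20 had it and 0 had the reverse. HNRNPK and ZFR also had the least spread of the members within the male-like class. Their coefficients of variation were 8.87% and 9.21%, against 20.2% to 31.9% for the other members.

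RASA1 encodes a GTPase-activating protein that switches off Ras. In the control diet its female-like libraries 6 and 7 were at 12.1 and 10.99 FPKM and its male-like libraries 3 and 4 at 11.99 and 22.2. High protein gave 9.98 and 10.9 FPKM in the female-like libraries 1 and 4 and 21.1 and 21.0 in the male-like libraries 3 and 5. Lactulose gave 10.9 and 11.6 FPKM in the female-like libraries 2 and 6 and 17.0 and 17.6 in the male-like libraries 3 and 5. The 6 female-like libraries lay close together, with a coefficient of variation of 6.54%, and 5 of 6 male-like libraries were above all of them, the exception being control 3. RASA1 had the widest log2 difference of the members, 0.82 ± 0.10 or 1.76-fold (edgeR adjusted p = 0.002). Its means were 11.1 ± 0.724 FPKM in female-like and 18.5 ± 3.81 in male-like libraries (SD, n = 6 each).

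CHD1, NIPBL and SPIN1 act on chromatin. CHD1 encodes a chromatin remodeller that slides nucleosomes, and its Z and W copies are the usual target of DNA sexing tests in birds. Its female-like libraries ran from 3.63 through a median of 5.26 to 6.29 FPKM, and its male-like libraries from 4.46 through 7.67 to 8.37. Of the 6 male-like libraries, 5 were above all female-like ones, and control 3 was below 5 of the 6. The log2 difference was 0.56 ± 0.12 (edgeR adjusted p = 0.0431). This call was close to the threshold: it was lost in 9 of the 12 fits that left out a single library, at adjusted p of 0.0735 to 0.175, and in all it held in 8 of 23 alternative settings.

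NIPBL encodes the loader of cohesin, the ring complex that holds sister chromatids and DNA loops together. Control 3 was at 3.79 FPKM, and the other 5 male-like libraries were at 9.21 to 12.1. The female-like libraries lay between, at 5.56 to 7.85 FPKM. The log2 difference of all 12 libraries was 0.61 ± 0.19, as large as that of HNRNPK but with a wider error, and did not pass the test (edgeR adjusted p = 0.319). Without control 3 it was 0.78 ± 0.09 (edgeR adjusted p = 0.00183).

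SPIN1 encodes spindlin, a reader of methylated histone H3. Control 3 was again apart, at 8.48 FPKM, with the other 5 male-like libraries at 21.1 to 25.1. The female-like libraries ran from 10.7 through a median of 16.3 to 20.1 FPKM, with high protein 4 lowest and, at 23.3%, the highest coefficient of variation of the members in that class. The log2 difference was 0.45 ± 0.20 (edgeR adjusted p = 0.71), and 0.62 ± 0.13 without control 3 (edgeR adjusted p = 0.0333).

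UBAP2 encodes a protein with a ubiquitin-associated domain. Its female-like libraries ran from 8.11 through a median of 10.2 to 12.5 FPKM, and its male-like libraries from 6.90 through 13.3 to 16.2. Control 3 and high protein 5, at 11.2 FPKM, both lay below the highest female-like library, lactulose 2. The log2 difference of 0.39 ± 0.12 was the smallest of the members (edgeR adjusted p = 0.26), and was 0.47 ± 0.09 without control 3 (edgeR adjusted p = 0.0207).

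Control 3 was the lowest male-like library for 7 of 7 members. With it left out, 7 of 7 members were called higher in male-like libraries, where 1.73% of the 16292 genes then tested were called in either direction, 1.1% higher in male-like libraries and 0.626% lower. In the same 11 libraries, 6 of 7 members had every male-like library above every female-like one, and UBAP2 was the exception. Over all tested genes, 1.23% lay in that direction and 0.908% in the other. Of 685 other tested genes on Z in the Taihu assembly, 164 lay in that direction and 10 in the other. Control 3 is the lowest for every member, so leaving it out raises each male-like mean by construction. The calls and orders without it, here and for single genes, are therefore given as description only. The low level of several cell type markers in control 3 and its higher share of counts in few genes moved with the member values. Their part in the result was not tested. High protein 4 was the lowest female-like library for 5 of the members and high protein 1 for HNRNPK and RASA1.

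The W-like copies were found as rows described with the same protein, on other scaffolds. Such rows, 8 in all, belonged to 6 of the members, and no row was found for CHD1. HNRNPK, SPIN1, NIPBL, ZFR and UBAP2 had 1 row each, and RASA1 had 3 partial rows on short scaffolds. In the Taihu goose assembly the rows of HNRNPK, SPIN1, NIPBL and ZFR were on W and that of UBAP2 on chromosome 36, and the RASA1 rows had no match. Among the names missing from the name column, VCP, the ATPase that unfolds ubiquitinated proteins, had the row LOC125180969 on Z and LOC106048536 on chromosome 36. UBE2R2, a ubiquitin-conjugating enzyme, had LOC125179685, beside UBAP2 on its Z scaffold, and LOC106045180, beside the W-like row of UBAP2. That last row was added after values were seen, from its gene name in the Taihu table.

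The W-like row of HNRNPK is the row that set the classes, so its levels, 26.2 ± 3.01 FPKM in female-like and 0.701 ± 0.907 in male-like libraries (SD, n = 6 each), are the rule itself. The W-like rows of the other proteins mark the same 6 libraries and are given with no test. SPIN1's W-like row, LOC125181310, was at 6.53 to 9.99 FPKM in the female-like libraries and 0 to 0.653 in the male-like ones. NIPBL's, LOC125181257, was at 3.51 to 4.92 FPKM and 0.021 to 0.362. ZFR's, LOC125181538, was at 4.75 to 6.04 FPKM and 0.048 to 0.559, and UBAP2's, LOC125179635, was at 6.35 to 9.60 and 0.132 to 1.04. The VCP row LOC106048536 was the most abundant, at 41.3 to 48.2 FPKM in female-like and 0.838 to 4.75 in male-like libraries. The smallest of the RASA1 rows, LOC125181778, was at 0.724 to 1.116 FPKM and 0 to 0.112. Apart from the row that set the classes, the W-like rows did not overlap between them. Over all tested genes, 0.765% had every female-like library above every male-like one, a share given for scale only, since these rows passed the filter on low counts through the class where they are high.

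In the female-like libraries the W-like copy gave between 29.2% and 65.9% of the counts of each pair. The mean share of the W-like rows in the counts of both copies was 65.9 ± 3.37% for SPIN1, 54.6 ± 0.571% for VCP and 43.6 ± 1.51% for ZFR (SD, n = 6). It was 39.9 ± 1.49% for UBAP2, 37.7 ± 0.912% for NIPBL and 37.3 ± 1.97% for HNRNPK. RASA1, with its 3 partial rows, was at 31.1 ± 3.84%, and UBE2R2 was lowest at 29.2 ± 2.86%. NIPBL and HNRNPK lay within each other's spread. A share of counts depends on the length of each row's model: for SPIN1 a count was worth 3.78 times less FPKM in the W-like row than in the Z row, against 0.804 to 1.44 times for the other single-row pairs. Per length, SPIN1's W-like row was therefore below its Z row, at 8.11 ± 1.37 against 16.02 ± 3.73 FPKM in the female-like libraries. VCP was the protein whose W-like row was above its Z row per length, at 44.6 ± 3.08 against 39.5 ± 3.38 FPKM.

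**Figure D2:**
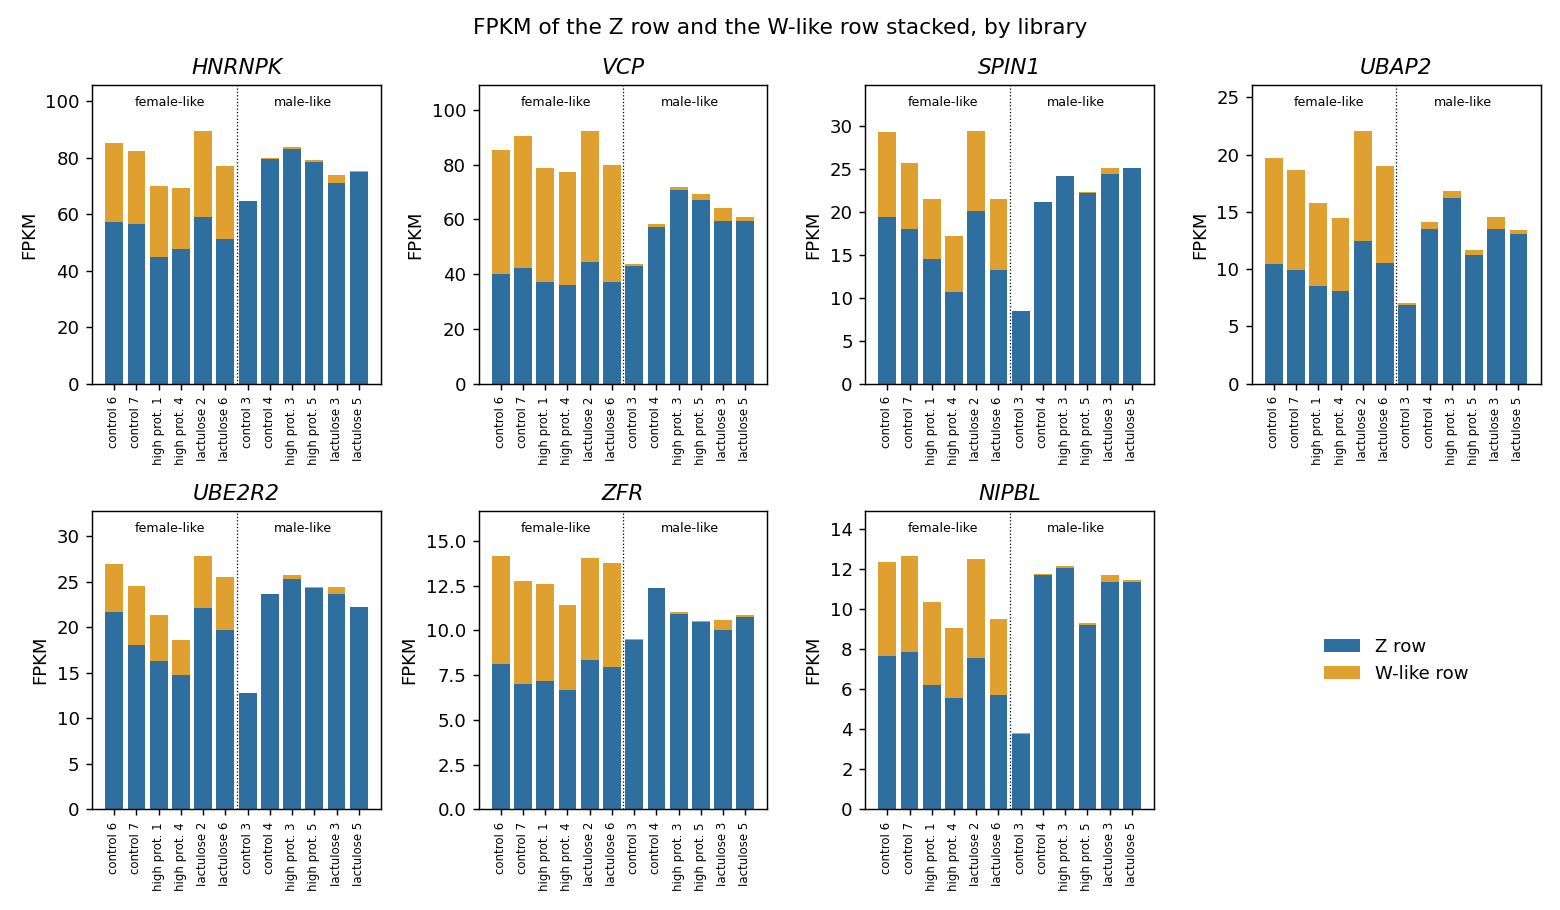
FPKM of the Z row and the W-like row stacked for each library, for the proteins with a single W-like row, female-like libraries on the left and male-like on the right. The W-like part is visible in the 6 female-like libraries, and the stacked totals overlap between the classes for 6 of 7 proteins, VCP being the exception.

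When the copies were added, the log2 differences of summed counts lay below 0 for 7 of the 8 proteins, HNRNPK among them, and above 0 for RASA1. The W-like rows mark the classes, so adding them moves each sum towards the female-like libraries by construction. The p-values of the sums are therefore given as description only. The sum for HNRNPK holds the row that set the classes, so it is a description with no test: both copies were at 78.9 ± 8.29 FPKM in female-like and 76.1 ± 6.62 in male-like libraries (SD, n = 6 each). ZFR was at 13.1 ± 1.06 and 10.8 ± 0.931 FPKM (-0.21 ± 0.08 on the log2 scale of summed counts, edgeR adjusted p = 0.568). UBAP2 was at 18.3 ± 2.75 and 12.9 ± 3.34 FPKM (-0.30 ± 0.12, edgeR adjusted p = 0.641). NIPBL, at -0.06 ± 0.19 (edgeR adjusted p = 0.979), changed sign without control 3, at 0.12, and without control 7, at 0.01. RASA1, whose W-like copy is 3 partial rows, kept a positive difference of summed counts, 0.29 ± 0.10 (edgeR adjusted p = 0.401).

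VCP with both copies was at 84.1 ± 6.42 FPKM in the female-like libraries and 61.4 ± 9.98 in the male-like ones (SD, n = 6 each). The classes did not overlap, with 77.3 to 92.5 against 43.8 to 71.9 FPKM. The sum holds LOC106048536, which by itself was at 41.3 to 48.2 FPKM in female-like and 0.838 to 4.75 in male-like libraries. Among single rows of all tested genes, 0.765% had every female-like library above every male-like one. No such share was computed for sums. The log2 difference of summed counts was -0.42 ± 0.10 (edgeR adjusted p = 0.0795, DESeq2 adjusted p = 5.63e-05). These p-values are description only, since the added W-like row moves the sum by construction. SPIN1 was the 1 protein under the threshold by edgeR, at -1.06 ± 0.18 (edgeR adjusted p = 0.00973), where 1.41% of the 16065 genes of that fit were called. Its sum is moved by construction too. The SPIN1 value also depends on the unit: on summed FPKM, 24.1 ± 4.89 against 21.1 ± 6.38, limma gave -0.24 (adjusted p = 0.856). UBE2R2 ranged over 18.7 to 27.8 and 12.8 to 25.8 FPKM (-0.17 ± 0.11 on summed counts, edgeR adjusted p = 0.922). Reads shared between the copies may have been split between the rows in a way the sources used here do not give. The level of each single row is therefore uncertain.

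The rows that lack the symbols behaved as follows. LOC125180969, the Z row of VCP, was at 39.5 ± 3.38 FPKM in female-like and 59.5 ± 9.64 in male-like libraries, with a log2 difference of 0.67 ± 0.09 (edgeR adjusted p = 0.00307). LOC125179685, the Z row of UBE2R2, was at 18.8 ± 2.94 and 22.0 ± 4.61 FPKM, at 0.31 ± 0.11 (edgeR adjusted p = 0.495). Control 3 was its lowest male-like library too, so leaving it out raises the male-like mean by construction. The value without control 3 (edgeR adjusted p = 0.0421) is given as description only. SMAD2, the signal carrier of TGF-beta, had 2 rows on scaffolds with no placed gene, so neither was assigned to Z or W. LOC106037327 was higher in male-like libraries (0.55 ± 0.09, edgeR adjusted p = 0.00957, but limma adjusted p = 0.117 on log2(FPKM + 1)), and LOC125179633 was lower, at 1.33 ± 0.434 FPKM against 5.00 ± 0.898 (-1.80 ± 0.26, edgeR adjusted p = 0.00365).

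Low W-like counts remained in the male-like libraries and were uneven. Summed over the W-like rows of the members, the female-like libraries held 9799 to 12544 counts, and the male-like libraries held 72 in control 3, 221 in control 4, 279 in high protein 3, 269 in high protein 5 and 202 in lactulose 5. Lactulose 3 held 1221. Scaled by the library total and set against the female-like mean of each protein, the W-like rows of lactulose 3 stood at 8.00% to 14.3% over all 8 proteins, with a median of 10.2%. The other 5 male-like libraries had medians of 0.401% to 2.28%, and their highest single value was 8.16%. A source of the counts in lactulose 3 was not tested. Among its Z rows, HNRNPK at 71.2 FPKM, RASA1 at 17.0 FPKM and ZFR at 10.03 FPKM were second lowest of the male-like class, above control 3, while SPIN1 and UBAP2 were second highest.

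**Figure D3:**
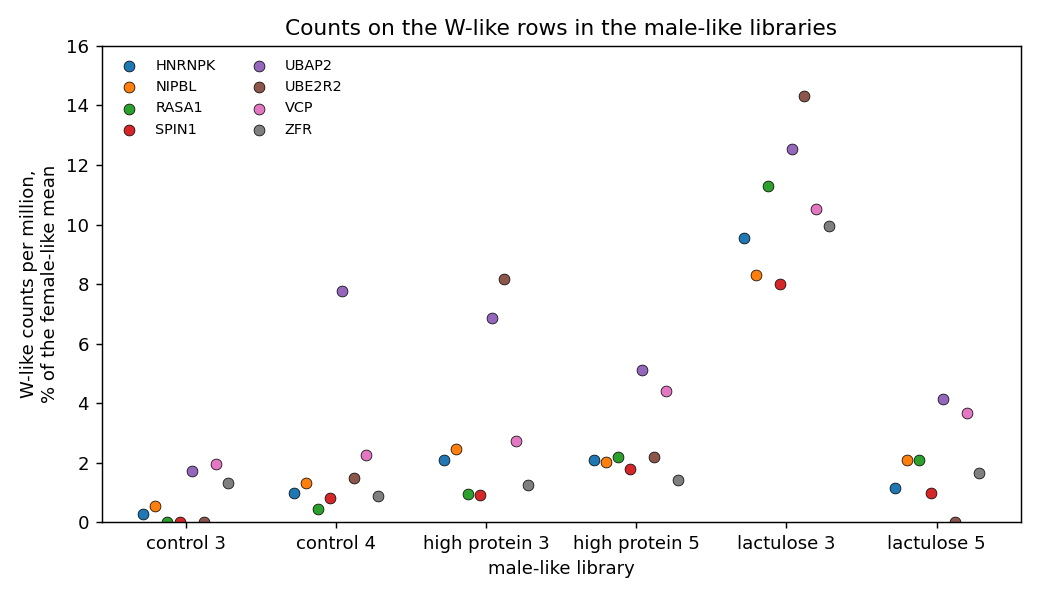
W-like counts of each protein, scaled by the library total, in the male-like libraries, as a percent of the mean over the female-like libraries. Lactulose 3 lies at 8.00% to 14.3% for all 8 proteins, and the medians of the other 5 libraries lie at 0.401% to 2.28%.

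The Z rows of the members were set beside the other genes of their scaffolds. Of 314 such neighbours, 258 were tested, 26 were called higher in male-like libraries and 0 lower, where 0.883% of all genes were called higher and 0.622% lower. Their median log2 difference was 0.15. The mixed NIPBL scaffold gives many of these. Among the 108 tested neighbours that lie on Z in the Taihu assembly, 24 were called higher, 94 had a positive difference, and the median was 0.50, or 1.42-fold, against 0.60 for the members. Over the 685 other tested genes on Z in that assembly, 127 were called higher and 6 lower, with a median of 0.39. These 685 include the neighbours on Z and leave out the members and the Z rows of VCP and UBE2R2. The members were not tested against other Z genes, and neighbours were not sorted by whether they keep a W copy. The neighbours with the smallest p were NAA35, a subunit of an N-terminal acetyltransferase, at 11.4 against 17.8 FPKM (0.74 ± 0.09, edgeR adjusted p = 0.00156), and ERCC6L2, a helicase-like DNA repair factor, at 13.0 against 21.1 FPKM (0.79 ± 0.09, edgeR adjusted p = 0.00165).

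**Figure D4:**
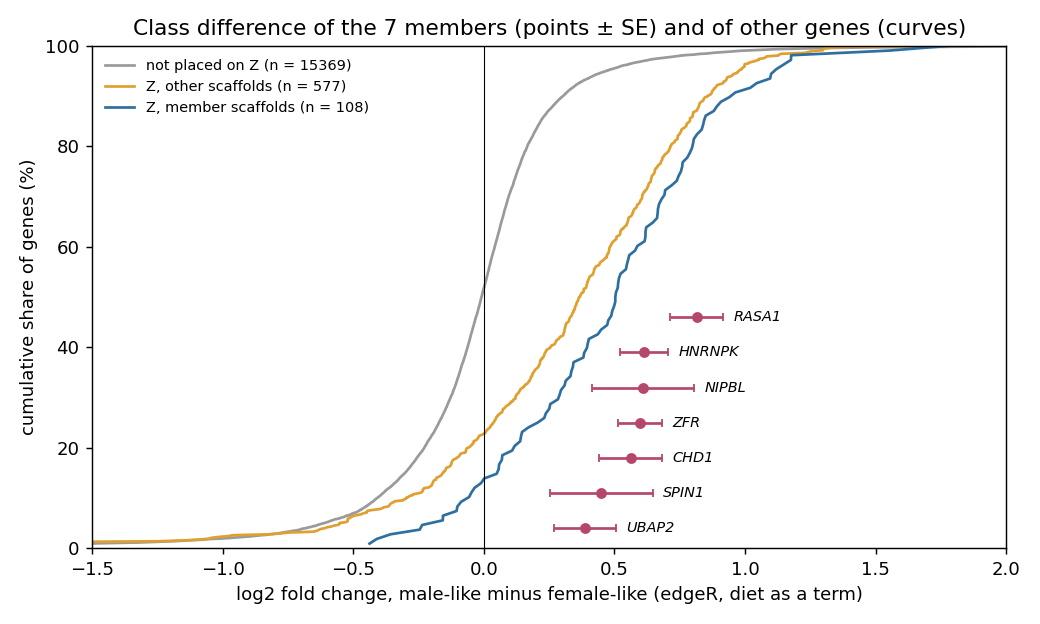
Cumulative share of genes (percent) by log2 difference, male-like minus female-like, for genes not placed on Z, Z genes on other scaffolds and Z neighbours on the members' scaffolds, with the 7 members as points with SE whose height has no meaning. The curve of genes not placed on Z centres near 0, the curves of both Z sets lie to its right, and the members lie at 0.39 to 0.82.

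The members were also set beside the neighbours of each scaffold that lie on Z. UBAP2 was at 0.39, and 14 of its 22 tested neighbours had a larger log2 difference, with a median of 0.64. SPIN1 was at 0.45, with 11 of 18 neighbours above it and a median of 0.55. HNRNPK was at 0.61, with 6 of 26 neighbours above it and a median of 0.39. ZFR was at 0.60, with 11 of 26 above it and a median of 0.52. NIPBL was at 0.61, with 3 of 11 above it and a median of 0.34. RASA1 had 4 tested neighbours, 3 of them above its 0.82. CHD1, at 0.56, had 1, which was below it at -0.09.

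Further avian Z genes were looked at as lists. Of 17 names with a W copy in chicken, 13 were tested, and 4 were called higher in male-like libraries and 0 lower, with a median of 0.38. The list ran from -1.01 to 0.84, with 10 differences above 0. Below 0 were ST8SIA3 (-1.01 ± 0.86, with class means of 0.217 and 0.190 FPKM), TCF4 (-0.37) and ZNF532 (-0.21). Over all genes, 0.883% were called higher and 0.622% lower. ATP5F1A, the alpha subunit of mitochondrial ATP synthase, was at 238 ± 19.7 and 394 ± 38.3 FPKM in female-like and male-like libraries (0.82 ± 0.13, edgeR adjusted p = 0.00699). SMAD7, an inhibitor of TGF-beta signalling, differed by 0.84 ± 0.12 (edgeR adjusted p = 0.00379), GOLPH3, a Golgi phosphoinositide binder, by 0.52 ± 0.09 (edgeR adjusted p = 0.00892), and MIER3, a transcription regulator, by 0.53 ± 0.10 (edgeR adjusted p = 0.0159). Of 16 names held to lack a W copy, 14 were tested and 1 was called higher, RICTOR, a subunit of the mTOR complex that acts on AKT (0.49 ± 0.10, edgeR adjusted p = 0.028). Of the others, SMAD4 (-0.18) and ALDH1A1 (-0.45) had differences below 0, and the rest lay from 0.07 for NNT to 0.78 for PCSK1. The median of that list was 0.40, beside 0.38 for the list with W copies. GOLPH3 and RICTOR lie on scaffolds that hold a member, so they are also counted among the neighbours called above.

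Partners of the member proteins and paralogs, that is related genes, were listed too. The list included cohesin and its regulators, cofactors of VCP, SMAD and Ras pathway proteins, RNA-binding partners and paralogs of the members. Of 60 listed names, 48 were found and tested, and 1 was called, where 1.51% of all genes were called. That was PLAA, a ubiquitin-binding cofactor of VCP that itself lies on Z in the Taihu assembly, at 9.03 ± 0.892 FPKM in female-like and 13.7 ± 1.61 in male-like libraries (0.69 ± 0.08, edgeR adjusted p = 0.00186). The median of this list of partners and paralogs was 0.002 on the log2 scale. CARM1, an arginine methyltransferase, had the next smallest p and was not called (-1.09 ± 0.24, edgeR adjusted p = 0.0552). It too lies on Z in that assembly, as does SMAD4, the shared partner of the signalling SMADs (-0.18 ± 0.10, edgeR adjusted p = 0.859).

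No diet comparison called a member. For each pair of diets edgeR called 0 of the 16075 genes, 0% of those tested. At an unadjusted p under 0.05, chance alone gives a share of about 0.05. For high protein against control there were 503 of the 16075 genes, below that share. There were 891 such genes between lactulose and high protein, and 932 between lactulose and control, both slightly above that share. By DESeq2 the adjusted calls numbered 11, 22 and 27 in that order. HNRNPK had means of 64.5 ± 10.7 FPKM with control, 63.5 ± 20.1 with high protein and 64.1 ± 10.99 with lactulose (SD, n = 4 each). CHD1 had 6.18 ± 1.64, 5.75 ± 1.74 and 6.51 ± 1.64 FPKM. The diets overlapped in both genes, and each diet held libraries of both classes. Over the 7 members the fitted log2 differences ran from -0.14 to 0.09 for high protein minus control, from -0.18 to 0.16 for lactulose minus high protein and from -0.11 to 0.20 for lactulose minus control.

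Whether the class difference itself depends on diet was asked with a class by diet term, on 6 residual degrees of freedom. None of the 7 members was called: 0 of 7, with adjusted p from 0.385 for SPIN1 to 0.95 for RASA1 by edgeR, and 0.00622% of all genes, a single gene, were called. At an unadjusted p under 0.05 there were 2203 of the 16075 genes and no member. That share of genes is above the share of about 0.05 that chance alone gives, and its source was not tested. With 2 libraries of a class in a diet, this comparison has little power, and a missed threshold does not show that the class difference is the same in each diet.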

How the data were processed

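Poly(A) RNA of 12 ileum libraries was read as 150-base pairs from a strand-specific kit, per the labels' protocols. The tools in the submitters' processing notes are HISAT2 2.2.1, StringTie 2.1.6, cutadapt 1.9, edgeR and DESeq2, with no role for each. Whether counting used strand is not given in the sources used here. The authors deposited, per the file headers, raw counts and FPKM values by gene and library. The smallest counts cluster at 4 (5063 times, against 1799 at 3 and 1526 at 5), so 1 count may not stand for 1 read pair, which was not tested. If 1 count did stand for 1 read pair, a value of 0 would allow up to 3 counts.

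The members and gene lists were chosen with earlier results of these data known. The rule for named genes took all members and W-like rows and the listed Z genes. It also took up to 4 partners or paralogs with the smallest p, and up to 2 called neighbours in each direction (0 were called lower). Listed genes not named are given by count and range. SMAD4 as a partner was named after its value was seen. W-like rows were found by the description in the deposited table. Gene IDs were matched to the names of the Taihu goose assembly (17685 matched, 2151 did not). The main test was edgeR 4.0.16 (R 4.3.3) with TMM scaling, filterByExpr at a minimum count of 10, class and diet as terms, 8 residual degrees of freedom, two-sided, Benjamini-Hochberg adjustment over 16075 genes and a threshold of 0.05. SE is the absolute log2 difference divided by the square root of F. Tested on simulated data for the class comparison (15830 genes), it recovered 13 of 100 genes changed 1.5-fold and 57 of 100 changed 2-fold. There were 0 false calls among 15630, so a 1.5-fold difference was often missed there. The changed genes were drawn from all rows above a low mean count, so these rates are not those of genes with counts like the members'. Alternatives were DESeq2 1.42.0, limma 3.58.1 on log2(FPKM + 1) and log2(FPKM + 0.1), upper quartile scaling, other filters, counts divided by 4, leaving out each library, the replicate number as a block, and no diet term. Scaling without Z and W genes, the fit without control 3 and lactulose 3, neighbours limited to Z and the block for summed copies were added after seeing the data.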

Additional observations from a re-analysis of the deposited data

Results flagged for a closer look

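Of 69 groups of libraries searched for a value far from the rest, 12 held one, where chance gives about 5%. Control 3 was low among the male-like libraries for NIPBL (3.79 FPKM, next lowest 9.21), SPIN1 (8.48 FPKM, next 21.1) and LOC125179685, the Z row of UBE2R2 (12.8 FPKM, next 22.2). It was high for LOC125179633, described as SMAD2 (2.18 FPKM, next highest 1.29). RASA1 with the control diet held a high library, the male-like control 4, at 22.2 FPKM against 12.1 for the next.

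Lactulose 3 was high among the male-like libraries in 7 W-like rows. These were LOC125179667 of HNRNPK, which set the classes (2.51 FPKM, next 0.542), and LOC106048536 of VCP (4.75 FPKM, next 1.97). LOC125181538 of ZFR was at 0.559 FPKM (next 0.089), LOC125181310 of SPIN1 at 0.653 (next 0.142) and LOC125181257 of NIPBL at 0.362 (next 0.105). The RASA1 rows LOC125181653 and LOC125181833 were at 0.541 FPKM (next 0.157) and 0.496 FPKM (next 0.079). These rows share their library, so they are not independent of each other.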

How the results depend on the processing

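Over 23 alternatives, each of the 7 members kept a positive class difference, and HNRNPK and RASA1 were called in 22, ZFR in 20, CHD1 in 8, NIPBL in 2, and SPIN1 and UBAP2 in 1 each. The 4 members called became 2 with limma at either pseudocount and 3 to 7 when single libraries were left out, with 7 without control 3. Genes called between the classes, 242 by edgeR, were 397 by DESeq2. Neighbours called were 42 by DESeq2 and 15 to 31 with single libraries left out, and those on Z were 39 and 14 to 29. Summed copies called were 2 by DESeq2 and 0 by limma. These calls are description only, since the added W-like rows move each sum towards the female-like libraries by construction. Diet calls, 0 by edgeR, were 11 (high protein against control), 22 (lactulose against high protein) and 27 (lactulose against control) by DESeq2. They were 1 without a filter and 1 by limma in both comparisons with control, and 0 to 1 with single libraries left out in all 3. The summed RASA1 copies reversed with limma, at -0.18 and -0.19, where the FPKM of 3 partial rows were added. If these rows are parts of 1 copy, that sum counts the copy several times, which was not tested. Summed NIPBL ran from -0.15 to 0.12 with single libraries left out and reversed without control 3, at 0.12, and without control 7, at 0.01. The cause for NIPBL was not tested.

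With diet means taken out, same-numbered libraries correlated at -0.133 to 0.196 over 6 pairs. With class and diet taken out, they correlated at -0.303 to 0.031. Pairs with different numbers are not given here, so these values do not settle whether replicate numbers pair libraries. The replicate block left 2 residual degrees of freedom and called 0 genes between the classes, 0 members, 0 neighbours, 0 neighbours on Z and 0 summed copies. Among the replicate numbers, only number 4 held libraries of both classes, control 4 (male-like) and high protein 4 (female-like). The class difference of the block fit therefore rests on that pair, and its 0 calls cannot decide whether the class differences hold. In that fit the summed copies of NIPBL (0.80), UBAP2 (0.36) and UBE2R2 (0.46) reversed, which rests on the same pair.

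The classes rest on 1 row and not on recorded sex, with 6 libraries each. No sequence, and no W-like row of CHD1, was analysed here.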
